A study of Homo sapiens with 3 samples.

Results

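CRY1 occupancy was examined at 9 androgen-regulated genes in C4-2 cells: TMPRSS2, KLK3, FKBP5, CAMKK2, PMEPA1, NDRG1, HERC3, ZBTB10 and ABCC4. C4-2 is an established human line of castration-resistant prostate cancer, and it was grown in hormone-proficient medium, with the libraries labelled as vehicle and no drug or genetic change named. Chromatin immunoprecipitation followed by sequencing (ChIP-seq) gave 2 libraries with an antibody against CRY1 and 1 input library, and the peaks come from the 2 immunoprecipitates combined. The genes were chosen by the peaks themselves, since each had to have a summit (the base of highest read pileup) within 5 kb of an annotated transcription start site (TSS). Every peak with its summit inside one of these gene bodies or within 50 kb of it was then collected, which gave 14 of the 2551 peaks in the list. Where a gene had several peaks, they are lettered a, b and c from the strongest. With 1 pooled call in 1 cell line, no peak has a replicate error, and a site bound in only 1 library cannot be told from a site bound in both. Expression and the binding of other factors were not analysed here, and peak positions give no marker level by which the cell line could be checked.

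CRY1 is a repressor of the circadian clock that has no sequence-specific contact with DNA of its own in the clock complex and is brought to chromatin through CLOCK and BMAL1, which bind the E-box CACGTG. Androgens act on prostate genes such as secreted proteases, transporters, chaperones and metabolic enzymes, often from enhancers far from the promoter, and the DNA motif known for this response is the androgen response element, an inverted repeat of a 6-base half-site (AGAACA, then 3 bases of any kind, then TGTTCT). The peaks at these genes can therefore be described by 2 kinds of site, that of the clock activators and that of the androgen response.

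An exact E-box lay inside the called interval of 8 of the 14 peaks, against 57.4% of all peaks. The E-box of ZBTB10, 88.5 bp from its summit, is not printed, and the other 7 are shown so that the motif can be read with its flanks. Each is given with 12 bases on either side, on the plus strand of GRCh37 (hg19), and the capitals mark the E-box. The sites are chr21:42898794-42898823 in TMPRSS2, chr19:51353215-51353244 upstream of KLK3, chr6:35656902-35656931 (peak a) and chr6:35700094-35700123 (peak c) at FKBP5, chr20:56284556-56284585 in PMEPA1, chr4:89514387-89514416 in HERC3 (peak a) and chr13:95953988-95954017 upstream of ABCC4.
TMPRSS2: gtgtgtgagatgCACGTGgaaggcgaaagc
KLK3: atcaaatgtggtCACGTGtatgaggcacca
FKBP5 a: cccacgccagccCACGTGtctggcccttgc
FKBP5 c: aagggaagctcgCACGTGttgagcgtcccc
PMEPA1: cgtttgcagttgCACGTGcaggagacattg
HERC3 a: ggtgtgtgcggaCACGTGtgtacgggtgtg
ABCC4: tccggaggtgccCACGTGcacgaacccgag

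The first 5 of these E-boxes lay within 50 bp of their summit, and the last 2 lay farther out in wide peaks. The centre of the E-box was 0.5 bp from the summit at TMPRSS2 and at KLK3. It was 17.5 bp away at PMEPA1, 18.5 bp at FKBP5 a and 22.5 bp at FKBP5 c. At ABCC4 it was 167.5 bp away, and at HERC3 a 191.5 bp. The motif thus sat under the summit at 1 of the strongest and at several of the weakest of these peaks.

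The 14 peaks were mostly of middle or low strength within the list. Fold enrichment, a linear ratio of reads at the summit to the local background as computed by the authors, had a median of 4.85 (range 3.24 to 11.7), compared with 5.18 for the 2549 peaks on assembled chromosomes (range 2.39 to 24.0). For −log10 q, the negative logarithm of the false discovery rate of the call, the members had a median of 4.08 and the list one of 6.02, with values from 1.68 to 26.3 in the members. Of the 14 fold enrichments, 3 lay above the list's median, 9 below it and 2 at it. These values describe peaks that were chosen by being in the list, so no test was made of them.

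**Figure D1:**
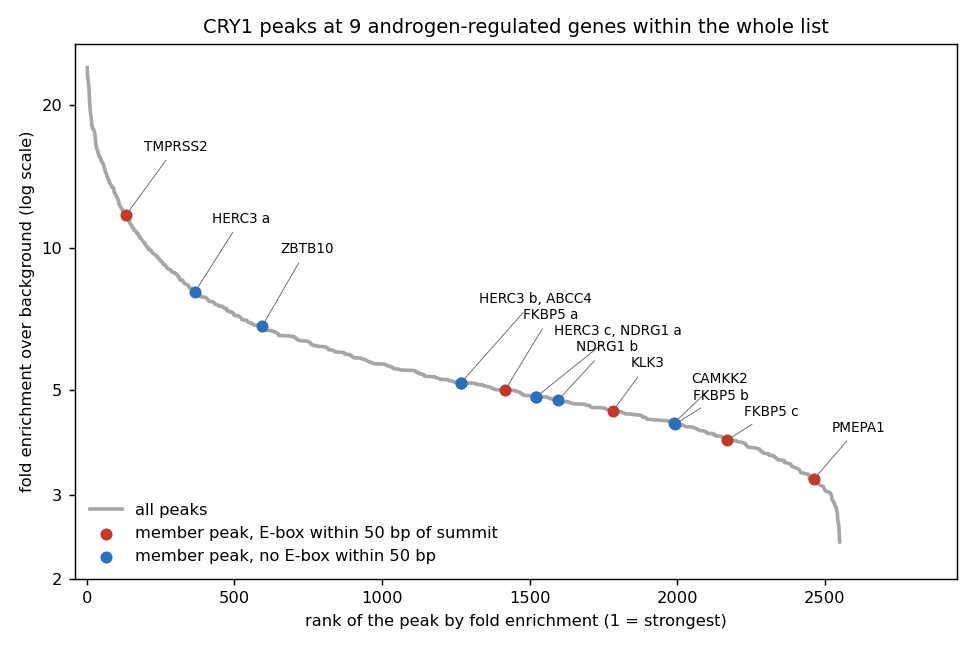
Fold enrichment (log scale) of all 2551 CRY1 peaks in order of rank (grey line), with the 14 peaks at the 9 androgen-regulated genes as points, red where an E-box lay within 50 bp of the summit and blue where none did. TMPRSS2, HERC3 a and ZBTB10 stand above the median of 5.18, and the other 11 points lie at or below it, down to PMEPA1 at 3.24.

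Both prostate proteases among the genes had their summit some kb from a TSS and directly on an E-box, but they differed widely in strength. TMPRSS2 encodes a transmembrane serine protease whose androgen-driven promoter is often fused to ETS genes in prostate cancer. The only TMPRSS2 peak (chr21:42898427-42899114, 688 bp) was enriched 11.7-fold (−log10 q 26.3). It ranked 133 in the list, above 94.7% of all peaks, and was the strongest of the 14. Its place relative to the gene depends on the transcript. The summit lay 4216 bp downstream of the nearest TMPRSS2 TSS, which belongs to a retained-intron transcript, and 18724 bp upstream of the canonical TSS. It was therefore intronic in the full annotation, and also in its basic set of transcripts, and intergenic when 1 canonical transcript per gene was used. The next CRY1 summit on the chromosome was 200399 bp away. The sequence under this summit (chr21:42898759-42898859, 101 bases on the plus strand, E-box in capitals) is shown because it is the clearest case of an E-box at an androgen-regulated gene.
TMPRSS2 summit: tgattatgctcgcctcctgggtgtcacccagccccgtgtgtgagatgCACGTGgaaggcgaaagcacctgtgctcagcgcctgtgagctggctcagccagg

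KLK3 encodes prostate-specific antigen, a secreted kallikrein protease and the best-known androgen-induced prostate protein. Its peak (chr19:51353199-51353281) was 83 bp wide, which is the smallest width in the list and is shared by 53 peaks. The fold enrichment was 4.53 and the −log10 q 3.88, above 30.1% of all peaks. The summit lay 4942 bp upstream of the canonical KLK3 TSS, inside an intron of the unnamed long noncoding gene ENSG00000267968, and was intergenic when only transcripts of protein-coding genes were used. Of the 9 genes, KLK3 was the closest to the 5 kb limit by which they were picked. The same summit lay 11595 bp from the nearest TSS of KLK2, a neighbouring kallikrein gene that therefore fell outside the limit. Besides the E-box, the window held the variant CATGTG, read here on the opposite strand, 19.5 bp from the summit. In the sequence (chr19:51353179-51353279, plus strand) the capitals mark the E-box and then the variant.
KLK3 summit: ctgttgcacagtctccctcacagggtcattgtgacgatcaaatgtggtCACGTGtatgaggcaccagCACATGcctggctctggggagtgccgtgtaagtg

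FKBP5 encodes a co-chaperone of HSP90 that takes part in steroid receptor folding and is induced by androgens and glucocorticoids. It had 3 peaks, in a pair of places 42958 bp apart. Peak a (chr6:35656656-35656949) was enriched 5.0-fold (−log10 q 6.02), above 43.6% of the list. Its summit lay 206 bp upstream of the canonical FKBP5 TSS, and the summit window held 1 E-box and 1 GC box. Peaks b and c lay 230 bp apart upstream of the FKBP5 gene body, 3496 and 3726 bp from its outermost TSS and 43164 and 43394 bp from the canonical one. They were weaker, with fold enrichments of 4.24 (chr6:35699818-35699902, −log10 q 3.42) and 3.92 (chr6:35700071-35700196, 2.43), and both were intergenic. ARMC12, which encodes an armadillo repeat protein, and the unnamed gene ENSG00000232909 also had a TSS within 5 kb of them. The E-box closest to summit b, 252.5 bp away, was the one that lay 22.5 bp from summit c, so this pair of peaks shared 1 E-box.

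Upstream of FKBP5 was also the only androgen response element found within 500 bp of any of the 14 summits, where a match was allowed 2 mismatches over the 12 fixed bases. Its centre lay 54 bp from summit b, outside the called interval, and 284 bp from summit c. At KLK3 the nearest match with up to 2 mismatches lay 4779 bp from the CRY1 summit and 163 bp upstream of the TSS, in the promoter. The nearest match to FKBP5 a was 1357 bp away. These sites are printed to show the match nearest to each CRY1 summit at FKBP5 and KLK3 (GRCh37, plus strand, the 6-base arms in capitals). They lie at chr6:35699788-35699816, chr19:51357994-51358022 and chr6:35655527-35655555.
FKBP5 b and c: gagcgaaAGAACAtccTGTGCCcgtcgcc
KLK3 promoter: taattgcAGAACAgcaAGTGCTagctctc
FKBP5 a: caaacgcTGAACAcacTGTCCTgaaccac

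CAMKK2 and PMEPA1, both signalling genes, carried weak peaks near a TSS. CAMKK2 encodes a calcium-dependent kinase upstream of AMPK. Its peak (chr12:121734366-121734521) was enriched 4.26-fold (−log10 q 3.88), above 22.1% of the list, and its summit lay 11 bp downstream of the canonical TSS and 11 bp upstream of another. No E-box lay in the peak, and the nearest was 213.5 bp from the summit. The window held 2 GC boxes and had a GC content of 83.2%, the highest of the 14. PMEPA1 encodes a membrane protein that restrains TGF-β signalling. Its peak (chr20:56284524-56284627) was the weakest of the 14, at 3.24-fold (−log10 q 1.68), above 2.98% of the list. The summit lay 518 bp downstream of the canonical TSS and 263 bp downstream of another, and 1 E-box was present. It counted as a promoter peak only through the TSS of the neighbouring noncoding gene NKILA on the other strand, and as exonic when only transcripts of protein-coding genes were used.

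HERC3, which encodes a HECT-type ubiquitin ligase, held a cluster of 3 peaks. Peak a (chr4:89514259-89514862, 604 bp) was enriched 8.05-fold (−log10 q 24.9), ranked 365 and lay above 85.7% of the list. Its neighbours were weaker, with fold enrichments of 5.18 (peak b, chr4:89514004-89514113, −log10 q 4.67) and 4.85 (peak c, chr4:89515056-89515264, 3.88), and their summits lay 561 and 612 bp from that of peak a. Only peak a held an E-box, and that site was the nearest one for all 3 summits, at 191.5, 369.5 and 803.5 bp. The windows differed in composition. Peak b had a GC content of 72.3% with 4 GC boxes, peak a 50.5% with none, and peak c 37.6% with none. HERC3 has 2 gene entries in the annotation, a longer and a shorter one, and both were taken as its body. Relative to the nearest canonical TSS the 3 summits lay 962 bp (a), 401 bp (b) and 1574 bp (c) downstream, and peaks a and b counted as promoter peaks through TSS of other transcripts.

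ABCC4, a membrane pump that exports cyclic nucleotides and drugs, had 1 peak at its promoter (chr13:95953760-95954185, 426 bp). The fold enrichment of 5.18 and the −log10 q of 4.67 were the same as those of HERC3 b, and 40 peaks of the list shared that fold enrichment. The summit lay 130 bp upstream of the canonical TSS, in a window with a GC content of 81.2% and 20 CpG dinucleotides. The window held no exact E-box but held the variant CACGCG, centred 15.5 bp from the summit. It is printed to set a GC-rich window without an E-box beside those with one (chr13:95953785-95953885, plus strand, the variant in capitals as CGCGTG, its opposite strand).
ABCC4 summit: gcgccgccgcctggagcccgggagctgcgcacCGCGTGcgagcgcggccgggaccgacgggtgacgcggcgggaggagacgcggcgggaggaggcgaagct

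The last 2 genes, ZBTB10 and NDRG1, lie on chromosome 8, and none of their sequence is printed. ZBTB10 encodes a zinc finger protein of the BTB family that represses transcription. Its peak (chr8:81397549-81398109, 561 bp) was enriched 6.83-fold (−log10 q 10.3), above 76.7% of the list. The summit lay 18 bp downstream of the nearest TSS and 589 bp upstream of the canonical one, and the nearest E-box, 88.5 bp away, was inside the peak. The unnamed gene ENSG00000251867 also covers the summit. No other summit on the chromosome lay within 5165673 bp.

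NDRG1 encodes a stress-induced protein that responds to androgens and to hypoxia. Its promoter peak (b, chr8:134309596-134309921) was enriched 4.76-fold (−log10 q 4.27). The summit was 393 bp from the canonical TSS, on its upstream side. Peak a (chr8:134228917-134229139) was enriched 4.85-fold (−log10 q 3.88), so the 2 measures ordered the pair differently. It lay 20388 bp beyond the end of NDRG1, in an intron of CCN4, which encodes a matricellular protein, and was the only one of the 14 with no TSS of any gene within 5 kb. Neither peak held an exact E-box. Each summit window held 2 E-box variants.

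**Figure D2:**
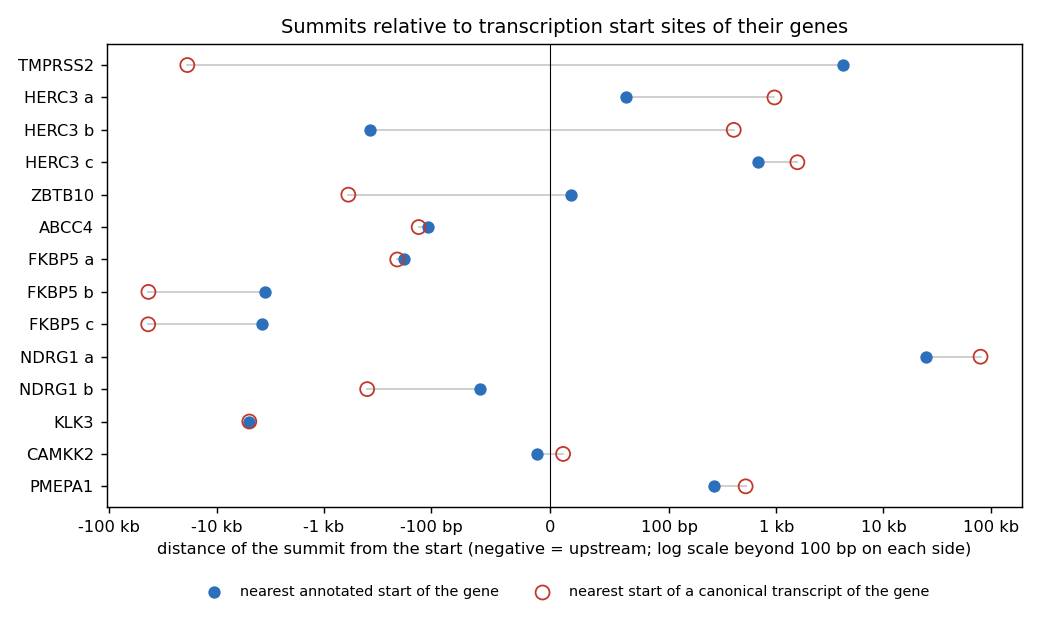
Distance of each of the 14 summits (rows) from the nearest annotated TSS of its gene (filled blue) and from the nearest TSS of a canonical transcript of that gene (open red), negative upstream, on a scale that is logarithmic beyond 100 bp. The 2 distances nearly coincide at ABCC4, FKBP5 a, KLK3 and CAMKK2, whereas TMPRSS2 moves from 4216 bp downstream to 18724 bp upstream.

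By region, 8 of the 14 summits lay in promoters (57.1%, Wilson 95% interval 32.6 to 78.6%), where the share over all peaks was 54.9%. A promoter was taken to reach 1 kb upstream and 100 bp downstream of any annotated TSS. Of the others, 4 were intronic (TMPRSS2, HERC3 c, NDRG1 a and KLK3) and 2 intergenic (FKBP5 b and c). The promoter peaks were assigned to 7 of the 9 genes, all but the proteases TMPRSS2 and KLK3, and the one assigned to PMEPA1 lay in the promoter of NKILA and not of PMEPA1. The genes were picked for a summit near a TSS, so nothing is read from this share. The promoter peaks had a median fold enrichment of 5.09 (n = 8) and the others 4.69 (n = 6), with ranges that overlapped (3.24 to 8.05 and 3.92 to 11.7).

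An E-box lay within 50 bp of 5 of the 14 summits (35.7%, Wilson interval 16.3 to 61.2%), against 47.8% of all summits. The 5 were TMPRSS2, KLK3, PMEPA1, FKBP5 a and FKBP5 c. Taking each peak from start to end, 8 of 14 held one (57.1%, interval 32.6 to 78.6%), against 57.4% of all peaks. The intervals were wide and the genes were picked through these same peaks. Neither likeness to the whole list nor a difference from it is therefore read from these shares. Windows centred 1000 bp to either side of these summits held the E-box in 0 of 28, which allows a share of up to 10.7%, and such windows held it in 1.63% over all peaks. The E′-box CACGTT lay in 1 window, at FKBP5 c, against 6.63% of all summits. Variants of the E-box lay in 5 windows (HERC3 a, ABCC4, KLK3 and both NDRG1 peaks), against 22.4% of all summits. The variants searched were CATGTG (the form seen at KLK3) together with CACGCG (the form seen at ABCC4) and a combination of both changes, CATGCG, each on both strands as for every motif here. The intervals cover the counting of peaks only, and peaks of 1 gene share their surroundings.

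Peaks with an E-box were found at both ends of the range of strength. Fold enrichment had a median of 4.53 (range 3.24 to 11.7) in the 5 with an E-box within 50 bp and 4.85 (range 4.24 to 8.05) in the 9 without. Over all peaks the medians were 5.73 with the E-box (n = 1218) and 4.87 without (n = 1331). The range of the 9 lay inside that of the 5, and with so few members the difference was not tested.

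No androgen response element with up to 2 mismatches lay within 50 bp of any of the 14 summits. A count of 0 of 14 allows a share of up to 21.4%, and over all summits the share was 0.235% (6 of 2549). The best match in each window had 4 to 7 mismatches, with a median of 5, as over the whole list. The exact half-site AGAACA was in 0 of the 14 windows, against 4.32% of all, and the forkhead site TGTTTAC (or with A as its second base), bound by factors such as FOXA1, was in 0, against 3.49%. Both were found farther out. The half-site lay within 500 bp of 4 summits, against 35.1% of all, and the forkhead site of 4, against 21.9%. From start to end, 1 of the 14 peaks (NDRG1 a) held a forkhead site, against 7.53% of all. Within 500 bp, 2 of the 14 summits had the androgen response element, against 102 of the 2549 summits, and these were FKBP5 b and c with the single site they share. Within 5 kb the numbers for this element were 7 of 14 for these genes and 39.6% for all summits. Besides FKBP5 and KLK3, they came from both NDRG1 peaks (583 and 3261 bp) and PMEPA1 (1311 bp). A missing match says only that these letters were not in the window.

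The GC box GGGCGG lay within 50 bp of 6 of the 14 summits (42.9%, Wilson interval 21.4 to 67.4%), where the share of all summits was 27.0%. The 6 were HERC3 b, ZBTB10, FKBP5 a, FKBP5 c, NDRG1 b and CAMKK2, and 5 of them were promoter peaks. Taking each peak from start to end, 42.9% of the 14 held a GC box, against 44.1% of all peaks. No difference from the whole list is therefore read from these shares. The median GC content of the windows was 61.4%, compared with 64.4% over all summits, and the median number of CpG dinucleotides was 6, compared with 7.

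**Figure D3:**
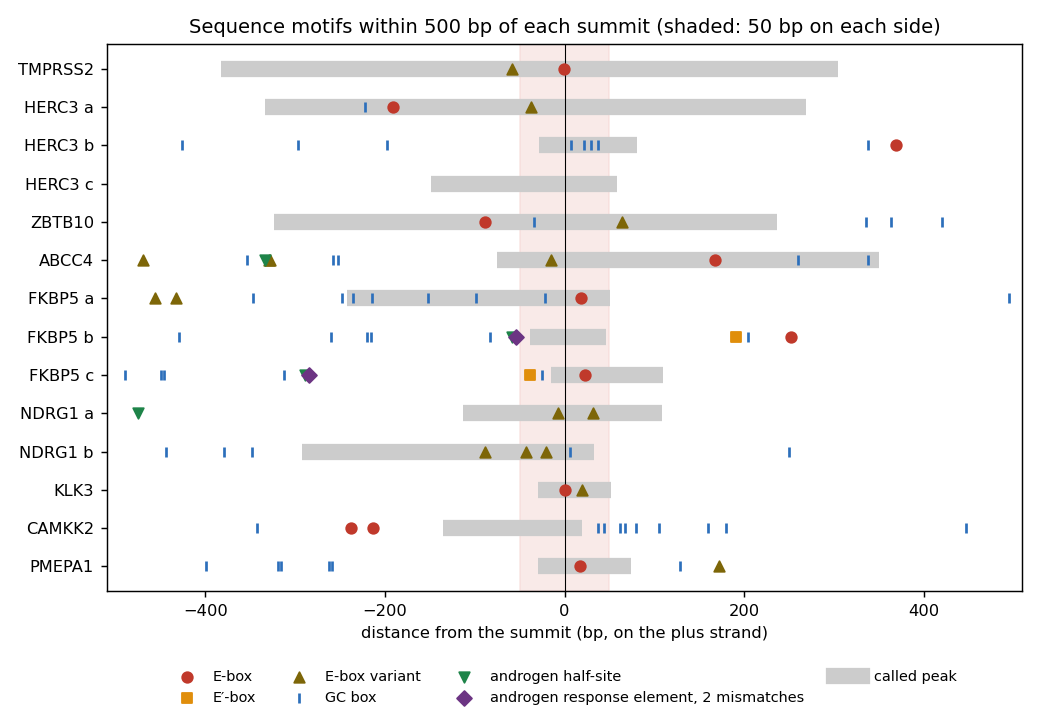
Positions of motifs within 500 bp of each of the 14 summits, in bp on the plus strand, with the called peak as a grey bar and the 50 bp on each side of the summit shaded. E-boxes (red circles) fall in the shaded band at TMPRSS2, KLK3, PMEPA1, FKBP5 a and FKBP5 c, and the androgen response element (purple diamond, 2 mismatches) appears only at FKBP5 b and c, outside the band.

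Set beside known clock targets, the strongest peaks of the androgen-regulated genes were weaker. The strongest peak within 50 kb of each of 13 clock genes (PER1, PER2, PER3, CRY1, CRY2, NR1D1, NR1D2, DBP, TEF, HLF, BHLHE40, BHLHE41 and CIART) had a median fold enrichment of 17.1 and ranged from 10.1 at CIART to 23.2 near BHLHE41. The strongest peaks of the 9 androgen-regulated genes had a median of 5.0 and ranged from 3.24 to 11.7. Only TMPRSS2, at 11.7, lay within the clock range, above CIART, BHLHE40 (10.2) and CRY1 (11.2). Width differed in the same direction, with a median of 294 bp against 1768 bp. These are maxima per gene, which rise with the number of peaks, and the clock genes held 54 peaks against 14. Over all of those peaks the difference was smaller. The median fold enrichment was 4.85 for the 14 and 5.96 for the 54, and the median width 216 and 425 bp. An E-box within 50 bp was found at 4 of the 9 strongest peaks (44.4%) and at 5 of the 13 (38.5%), against 47.8% of all summits. Among all 54 peaks of the clock genes, 15 had it (27.8%). Taken from start to end of these wider peaks, the E-box was in 7 of the 9 strongest (77.8%) and 9 of the 13 (69.2%). On that measure it was in 22 of the 54 (40.7%), against 57.4% of all peaks. The clock genes were listed as known targets and the comparison was not tested.

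**Figure D4:**
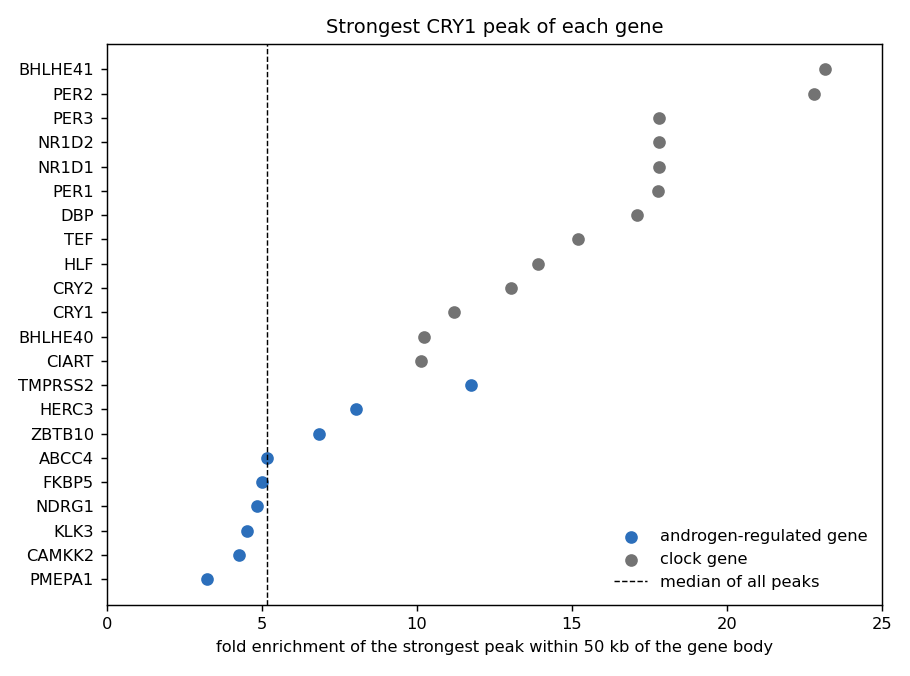
Fold enrichment of the strongest CRY1 peak within 50 kb of each androgen-regulated gene (blue) and each clock gene (grey), with the median of all peaks at 5.18 as a dashed line. TMPRSS2 at 11.7 is the only blue point above the lowest grey point, CIART at 10.1.

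A wider list of 44 androgen-regulated prostate genes was read to place the 9 among their pathway. A summit lay within 5 kb of a TSS of 12 of them, namely the 9 and LRIG1, FASN and SORD, of which LRIG1 and FASN are named here after their values were seen, against 8.22% of 20136 protein-coding genes. The list holds the 9 by construction and was written with earlier results of these data known, so its count is not evidence of an excess. By role, these 12 were 2 of 5 secreted proteases and phosphatases, 4 of 8 signalling genes, 2 of 9 metabolic genes, 1 of 8 genes of transcription and elongation, 1 of 5 transporters and reductases, the chaperone FKBP5 and the ubiquitin ligase HERC3. The listed genes nearest to the limit of 5 kb were KLK3 (4942 bp), TMPRSS2 (4216 bp) and, well inside it, SORD (326 bp), and the nearest beyond it were KLK2 (11595 bp), CREB3L4 (21510 bp) and GNMT (31042 bp). No peak lay within 50 kb of the body of 29 of the 44. The share over all protein-coding genes is not given for this distance, so the count is not read as high or low. For these 29, the nearest summit was 56.8 kb from a TSS of KLK4, 65.6 kb from RAB3B and 78.3 kb from CENPN, with a median of 422 kb. At the other limit, that of 50 kb, the member peak farthest from its gene was NDRG1 a (20.4 kb), and the nearest summit left out lay 115 kb from HERC3.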

How the data were processed

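The study performed ChIP-seq for CRY1 in C4-2 cells, with 2 immunoprecipitates and 1 input, grouped here by their titles. Per the methods, reads were aligned to hg19 with bowtie2 at default parameters and peaks were called with MACS2 on the combined replicates at q < 0.05. Use of the input as control, duplicate handling and blacklist filtering are not given in the sources used here. The deposited list gives each peak's position, summit offset, a fold enrichment ratio and a −log10 q value, all used as the authors made them. Fold enrichment took 1034 distinct values over 2551 peaks, so ties are common. Read depth is unknown from the list, which limits the precision of every value.

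Summits were placed on GRCh37 with GENCODE release 44 (lifted to that build), and 2 peaks on unplaced contigs were left out of sequence and gene results. Motifs were searched on both strands in 101 bp windows (pysam 0.24.0, pandas 2.3.3, Python 3.11.15), and the search was tested on simulated data. RefSeq promoters (GRCh38.p14) matched 6 of the 9 genes. The rule of naming was the 9 genes, genes over or within 5 kb of their summits, those of the list nearest to the 5 kb limit, and those of a further gene list that is not reported here. The members and lists were chosen with earlier results of these data known, so values are descriptions and no p-value is given.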

Additional observations from a re-analysis of the deposited data

How the results depend on the processing

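Requiring a fold enrichment of 5 or more left 6 peaks instead of 14 and left TMPRSS2, HERC3, ZBTB10, ABCC4 and FKBP5 with a peak. At that threshold 2 peaks instead of 5 had an E-box within 50 bp (TMPRSS2 and FKBP5 a), and 7 instead of 12 genes of the androgen-regulated list had a summit near a TSS. The shares over all peaks and genes at that threshold are not given, so neither count is read as high or low. At q < 0.01, 13 peaks remained and PMEPA1 had none, and the share of the whole list kept at that limit is not given. With promoters reaching 5 kb to each side of a TSS, 13 instead of 8 summits were in promoters, as were 1986 of all 2549. With 500 bp on each side of the summit the E-box was found at 11 peaks instead of 5, and at 75.6% of all. The androgen response element was found at 1 peak with 100 bp and at 2 with 500 bp, instead of 0. Over all summits the shares were 0.863% and 4.0%. Allowing 3 mismatches within 50 bp left the count at 0, against 2.43% of all summits. Ranked by −log10 q, 6 of the 9 genes kept their place by fold enrichment. The other counts stayed within 1.5 times of the reported ones, and the median fold enrichment was 4.85 in all alternatives but the threshold of 5, where it was 6.01 by construction. Replicates could not be left out in turn, since the 2 immunoprecipitates were merged before calling. No paired analysis was possible because the list carries 1 value per peak.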

Other observations

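Among the other 35 genes of the androgen-regulated list, 3 carried CRY1 close to a TSS (at most 5 kb away). The share over 20136 protein-coding genes was 8.22%, so the 3 are listed as values and not read as an excess. FASN, which encodes fatty acid synthase, had 4 peaks, and the strongest (chr17:80056363-80056698) was enriched 8.13-fold with an E-box within 50 bp. CCDC57 has a TSS within 5 kb of the same peaks. LRIG1, which encodes a membrane protein that restrains growth factor receptors, had 2 peaks. The one close to its TSS, at 15 bp, was enriched 6.22-fold and had no E-box within 50 bp. The stronger, at 6.5-fold in an intron, had an E-box within 50 bp but no TSS of any gene within 5 kb. SORD, which encodes sorbitol dehydrogenase, had 1 peak of 2.84 with an E-box. Of the peaks near CREB3L4 and GNMT, the strongest had fold enrichments of 5.47 and 6.63 and lay at promoters of other genes, DENND4B and CNPY3.

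In RefSeq promoters (250 bases before to 50 after the start, GRCh38.p14), 11 entries matched 6 of the 9 genes. Of these, 1 held the E-box, at FKBP5, against 7.26% of 35116 promoters, and 2 held an androgen response element with up to 2 mismatches, at KLK3 and PMEPA1, against 1.41%. The nearest such element to a CRY1 summit was 4779 bp away at KLK3 and 1311 bp away at PMEPA1.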
